A study of Fukomys damarensis and Heterocephalus glaber and Mus musculus with 160 samples.

Results

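Liver-only active enhancers of the Damaraland mole-rat (Fukomys damarensis) were stretches of chromatin that carried the marks of an active enhancer in liver and had no shared histone mark in heart. They were found by chromatin immunoprecipitation and sequencing (ChIP-seq), in which an antibody recovers crosslinked DNA and places with more reads than an input control are called as peaks. A consensus region of a tissue and mark was built from peaks that overlapped a peak of another animal by at least 50% of the shorter one. Of 76287 liver H3K27ac consensus regions, 28925 overlapped a liver H3K4me1 consensus region and met no liver H3K4me3 consensus region and no heart consensus region of any of the 3 marks. These 28925 regions are the members, and they covered 31.7 Mb. The members were chosen by the presence and overlap of the histone peaks, so width, fold, support and spacing of those peaks are given below as a description with no test. Binding of transcription factors was not used by the rule and was tested.

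H3K27ac is an acetylated histone tail found at promoters and enhancers in use, H3K4me1 marks enhancers whether in use or not, and H3K4me3 marks promoters. Enhancers are regulatory stretches, often far from the gene they act on, and those of liver are bound jointly by a small set of factors. FOXA1 is a forkhead factor able to bind compacted chromatin, CEBPA is a leucine zipper factor of differentiated hepatocytes, HNF4A is a nuclear receptor central to hepatocyte identity, HNF6 is a cut-homeodomain factor of liver and bile duct, and RXRA is the shared partner of many nuclear receptors. TBX5 is a T-box factor of the heart.

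All animals were wild-type adults with estimated ages of 36 or 48 months, and liver and heart were taken whole, so the signal of the cell types within each organ is mixed. Liver H3K27ac and H3K4me1 were each measured in 5 animals (DMR1, DMR2, DMR3, DMR4 and the female DMR6), and liver H3K4me3 in 2 (DMR1 and DMR4). Each of the 3 marks was measured in 5 hearts (DMR1, DMR2, DMR3, DMR4 and DMR11). Liver CEBPA, FOXA1 and RXRA came from DMR1 and DMR4, HNF4A from DMR4, HNF6 from DMR1, and heart TBX5 from DMR6. The 12 liver histone lists held 28820 to 165394 peaks, the 15 heart histone lists 20803 to 158541 and the 8 liver factor lists 19398 to 75849. Read depth is unknown, since a peak list carries no read numbers. Coordinates are those of the build DMR_v1.0, and no gene was assigned because no annotation of that build was at hand.

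The rule left 46899 liver active enhancers after the liver marks, and the heart marks then removed 17974 of them. Heart H3K27ac met 14133 of the removed regions, heart H3K4me1 14243 and heart H3K4me3 2057, with many regions counted under more than 1 mark. Among the removed regions, 3715 met heart H3K4me1 and neither of the other heart marks. Most members lay clear of any heart region, since 27883 (96.4%) did not touch a heart consensus region by a single base. At the edge of the rule, 251 members overlapped a heart region by 40% to 50% of the shorter, with a median width of 688 bases and a median H3K27ac fold of 5.56. The 368 regions just past the limit, at 50% to 60%, had medians of 734 bases and 5.58. Single hearts still gave peaks at some members that did not enter a consensus at that place: 4201 members (14.5%) had a peak in 1 of the 15 heart libraries and 1911 (6.61%) in more than 1. Those heart peaks were mostly H3K4me1, at 4522 members, against 2499 for H3K27ac and 524 for H3K4me3. Single livers likewise gave an H3K4me3 peak that entered no consensus there, at 433 members (1.497%) in DMR1 and 1063 (3.675%) in DMR4, with median folds of 4.75 and 5.64.

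Support for the members differed between animals. A liver H3K27ac peak was found at 24516 members (84.8%) in DMR1, 23706 (82.0%) in DMR2, 18803 (65.0%) in DMR3, 23331 (80.7%) in DMR4 and 18202 (62.9%) in DMR6. DMR3 and DMR6 were the low animals, and they also had the shortest H3K27ac lists, 84711 and 78131 peaks against 93145 to 114466 in the others. Accordingly, 12263 members (42.4%) had a peak in all 5 livers and 7274 (25.1%) in the minimum of 2. Members with 2 libraries had a median width of 392 bases and a median fold of 4.79, and members with all 5 had 1435 bases and 9.54. H3K4me1, the mark of enhancer identity, was found at 24465 members in DMR1, 27488 in DMR2, 20305 in DMR3, 24682 in DMR4 and 23591 in DMR6. DMR2 was the highest of the 5 for this mark and DMR3 the lowest.

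Most members were short and modestly enriched. Width ran from 182 to 16054 bases with a median of 713, quartiles of 458 and 1352 bases and a 95th percentile of 3114. There were 8657 members (29.9%) under 500 bases and 332 (1.15%) of at least 5000. The fold used here is the authors' fold enrichment of the strongest overlapping peak, a linear ratio over background, averaged over the libraries with a peak. Its median was 6.17, with quartiles of 4.97 and 8.91 and a maximum of 55.7. Within each animal the median fold at members was 6.75 in DMR1, 6.21 in DMR2, 7.14 in DMR3, 6.82 in DMR4 and 7.34 in DMR6. The animals differed little, and the short lists of DMR3 and DMR6 had the higher medians. Liver H3K4me1 gave median folds of 5.67 to 6.50 at members over the 5 livers.

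Width and fold went together, with a Spearman coefficient of 0.763 across the 28925 members, whose values come from the same peaks. The H3K4me1 region around a member was usually the wider one: 81.3% of members were narrower than the H3K4me1 region they met, whose median width was 1831 bases. The members fell into 24037 H3K4me1 regions, 4022 of which held more than 1 member.

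Liver active enhancers that also carried a mark in heart, the nearest comparison, were somewhat wider, with a median of 883 bases, and had a median H3K27ac fold of 6.32. Heart-only active enhancers, 14253 regions found by the same rule with the tissues exchanged, had medians of 814 bases and 5.59 for heart H3K27ac. Liver-only primed enhancers, 41042 regions with liver H3K4me1 and neither of the other marks, had a median width of 764 bases and a median H3K4me1 fold of 4.52. Their width is that of H3K4me1 regions, and the H3K4me1 region at a member had a median of 1831 bases.

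**Figure D1:**
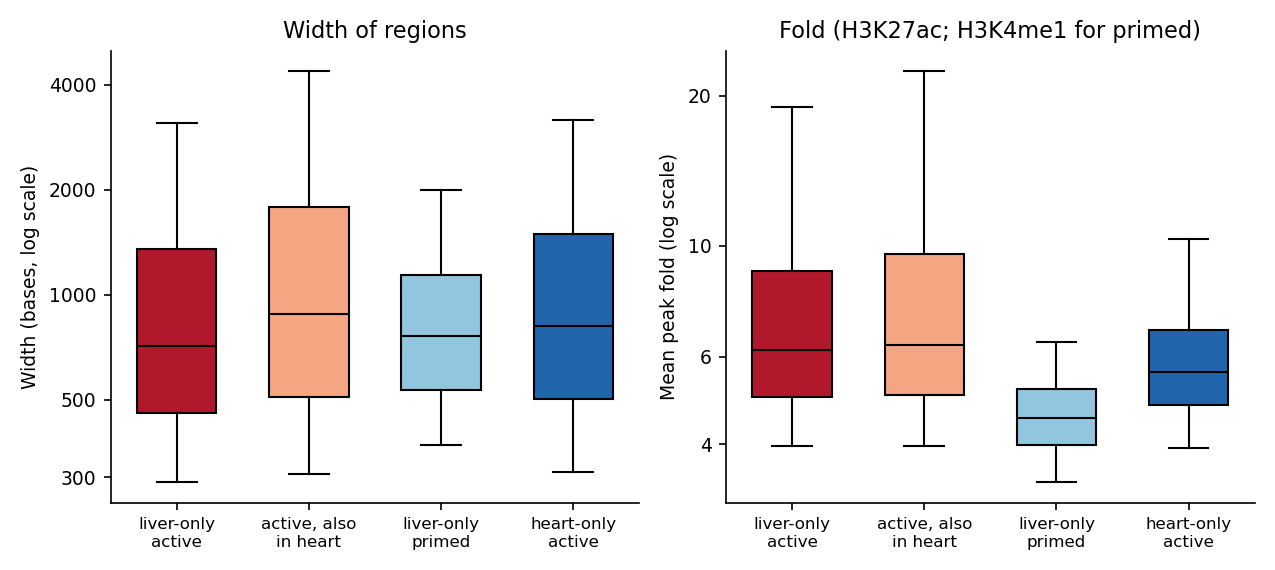
Width in bases (left, log axis) and mean peak fold (right, log axis) of 28925 liver-only active enhancers and 3 sets compared with them. Boxes span the quartiles around the median and whiskers the 5th to 95th percentiles over regions. The members have a median width of 713 bases, the lowest among the sets of H3K27ac regions, and a median H3K27ac fold of 6.17. Width and fold of the primed set are those of H3K4me1 regions, so its median of 764 bases is of another mark.

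The strongest members were ranked among those with a peak in all 5 livers, so their presence in every liver was set by the choice. The 5 with the highest fold were broad. A high fold was not confined to broad members: a short region on KN115855.1, without a peak in every liver, also had one and was bound in no liver factor library. The highest mean H3K27ac fold belonged to KN124379.1:1602612-1617208, a lone region of 14597 bases. Its fold was 65.1 in DMR1, 44.8 in DMR2, 49.4 in DMR3, 50.3 in DMR4 and 69.0 in DMR6, a mean of 55.7 ± 10.7 (SD, n = 5). All 8 liver factor libraries had a peak there, with CEBPA at a fold of 71.2 in DMR4 and 18.4 in DMR1, RXRA at 55.2 and 24.4, FOXA1 at 26.1 and 27.4, HNF6 at 23.8 and HNF4A at 16.0. It had no TBX5 peak and no peak in any heart histone library.

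The second was KN122228.1:10170646-10176099, 5454 bases wide, with 64.3 in DMR1, 39.7 in DMR2, 65.5 in DMR3, 58.7 in DMR4 and 48.9 in DMR6. It was bound in every liver factor library but HNF6, with CEBPA of DMR4 the highest at 36.2. The third, KN109695.1:1-2812, began at the first base of a scaffold and varied most, from 29.8 in DMR1 to 72.0 in DMR2. RXRA of DMR4 reached 57.5 there and HNF4A 20.8, CEBPA of DMR1 and HNF6 had no peak, and TBX5 had a weak one at 3.94. The next by fold, KN120511.1:5916875-5923066 and KN121968.1:3190731-3202198, had mean folds of 49.0 ± 10.1 and 48.2 ± 13.4 (SD, n = 5). Each was bound in 7 of 8 liver factor libraries, the first lacking FOXA1 of DMR4 and the second CEBPA of DMR1. None of these 5 had a heart histone peak except the region at the scaffold start, which had a peak in 1 heart library.

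The widest members were bound in 6 to 8 of the 8 liver factor libraries. KN124869.1:10703315-10719368 spanned 16054 bases, with folds between 15.5 in DMR1 and 24.9 in DMR2, a mean of 20.9 ± 4.88 (SD, n = 5). All 8 liver factor libraries had a peak in it, RXRA of DMR4 the highest at 26.1, and it lay in a run of 15 members. KN121800.1:102725-118408, 15684 bases, had folds of 31.6 in DMR3 to 57.3 in DMR2 and was also bound in all 8 libraries. KN123720.1:1256175-1270817, 14643 bases, had folds of 18.8 in DMR3 to 44.7 in DMR4 and was bound in 6, without FOXA1 of DMR1 and HNF6. A narrower region, KN123014.1:9468088-9472647, was bound in all 8 libraries as well, with a mean H3K27ac fold of 43.2 ± 14.1 (SD, n = 5) and RXRA of DMR4 at 27.01. It also had a TBX5 peak at a fold of 4.46.

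Members lay near each other. Between neighbours on a scaffold the median gap was 9797 bases, and 53.6% of gaps were at most 12.5 kb. Chaining members across gaps of that size gave 3371 runs of 3 or more members, which held 50.9% of them. There were also 3542 pairs and 7118 lone members, and 98 runs of 10 or more. Active enhancers also marked in heart gave a like share, 51.8% in runs of 3 or more, while heart-only active enhancers gave 40.5% and liver-only primed enhancers 37.6%. These shares rest on the numbers of regions and on scaffold lengths as well as on spacing, and were not tested.

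Part of the clustering was at short range. There were 6981 gaps of at most 500 bases between neighbouring members (25.1% of gaps), with a median length of 138 bases, and 12860 members (44.5%) stood beside one. Joining members across such gaps left 21944 regions with a median width of 1100.5 bases. The joined regions formed 1812 runs of 3 or more, in place of 3371, and 32.1% of them lay in such runs, in place of 50.9%.

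The 3 runs with the most members spanned 83069 to 115483 bases. The first, KN123330.1:2397398-2512880, held 23 members over 115483 bases, of which they covered 42.2%. Its members' mean H3K27ac folds went from 3.32 to 27.7 with a median of 5.65, and 13 of the 23 were bound in at least 1 liver factor library. The whole span, with the stretches between members, held 24 RXRA, 23 CEBPA, 16 HNF4A and 5 FOXA1 summits of DMR4. From DMR1 it held 10 RXRA, 7 CEBPA, 5 HNF6 and 4 FOXA1 summits. Also within it were 3 active enhancers also marked in heart, 2 liver promoter regions and 3 liver-only primed enhancers. The second run, KN122458.1:4365190-4462113, held 23 members with a median fold of 8.19, 15 of them bound, and 3 liver promoter regions. The third, KN123265.1:4161004-4244072, held 21 members with a median fold of 5.13, of which 6 were bound. A mean fold under 6 was found at 13, 7 and 15 members of the 3 runs, and 12, 6 and 14 of these were bound in at most 1 library. The member with the highest fold in each run was bound in 5, 6 and 7 of the 8 libraries. No heart-only active enhancer lay within the spans.

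**Figure D2:**
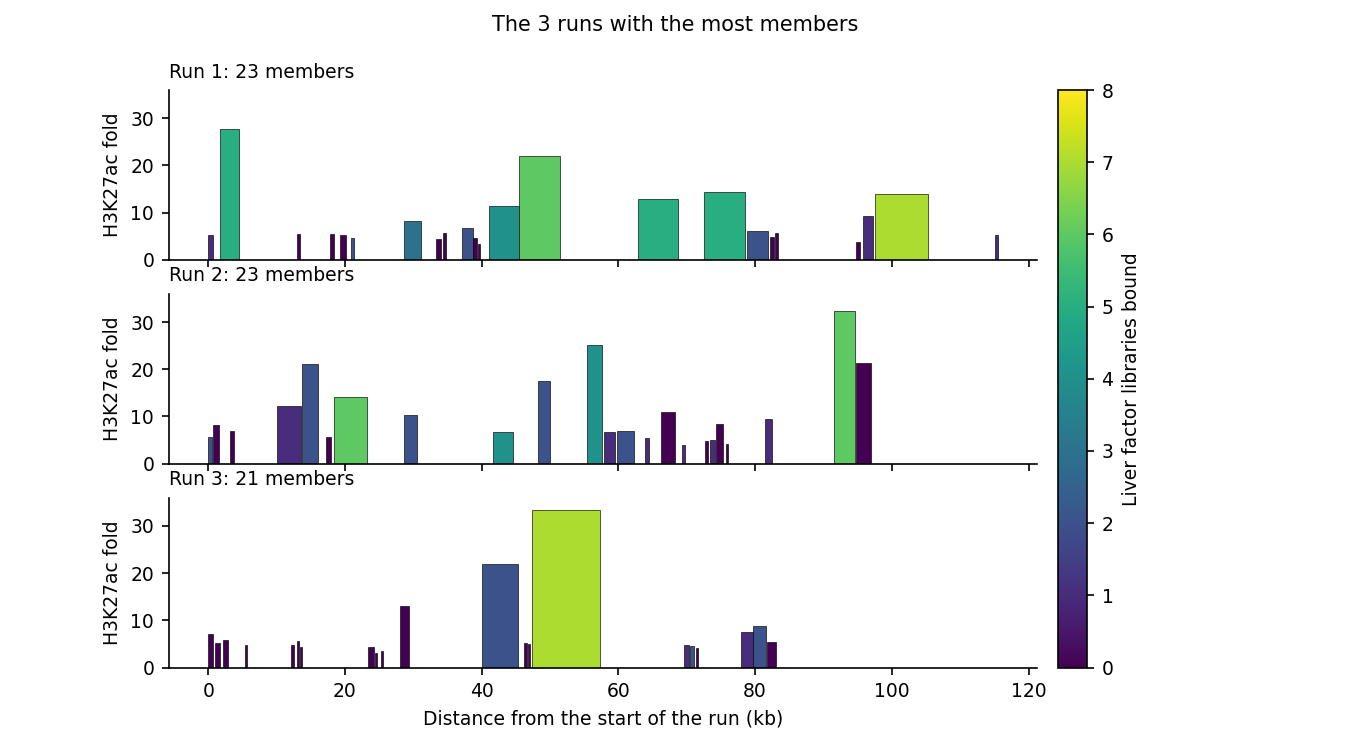
The 3 runs with the most members (23, 23 and 21), each bar a member placed by its distance in kb from the start of the run, with its mean H3K27ac fold as height and the number of liver factor libraries bound as colour. The tallest bars, at folds of 27.7, 32.4 and 33.4, are bound in 5, 6 and 7 libraries, and of the 13, 7 and 15 bars under a fold of 6, all but 1 in each run are bound in at most 1.

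Members were distal. The distance from a member's centre to the nearest liver promoter region (H3K27ac with H3K4me3) had a median of 31739 bases, with quartiles of 11129 and 93821, over the 28165 members on a scaffold with a promoter. The median was 18823.5 bases for active enhancers also marked in heart, 39421 for liver-only primed and 47902.5 for heart-only active enhancers measured to the same liver promoters. Of the members, 22.8% lay within 10000 bases of a liver promoter and 23.9% beyond 100000.

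A member was called bound in a factor library when a peak overlapped it by at least 50% of the shorter. CEBPA bound 4715 members (16.3%, Wilson 95% interval 15.9 to 16.7) in DMR1 and 10843 (37.5%, 36.9 to 38.0) in DMR4, against 13.0% and 30.1% of all 76287 liver H3K27ac regions, members included. FOXA1 bound 3602 (12.5%) in DMR1 and 2739 (9.47%) in DMR4, against 9.23% and 8.16%. HNF6 bound 3617 (12.5%) in DMR1, against 9.98%. These 3 factors bound members more often than acetylated regions at large, in all 5 of their libraries. Liver promoter regions stood above members for FOXA1 of DMR4, at 9.83%, and below them in the other libraries of these factors.

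By the overlap call, HNF4A and RXRA stood at or near the level of acetylated regions at large. HNF4A bound 5828 members (20.1%) in DMR4, against 21.5% of all liver H3K27ac regions. RXRA bound 4422 (15.3%) in DMR1 and 9809 (33.9%) in DMR4, against 15.0% and 33.7%. By overlap, both bound liver promoter regions more often than members, with 34.4% for HNF4A and 20.9% and 48.3% for RXRA. Promoter regions were wider, with a median of 1278 bases. In a fixed window of 1000 bases at the centre, HNF4A had a summit at 23.8% of members, 23.9% of promoter regions and 19.9% of all liver H3K27ac regions. For RXRA the shares were 18.8%, 12.7% and 14.0% in DMR1, and 43.1%, 36.7% and 34.9% in DMR4. That window is longer than a member of median width and shorter than a promoter region of median width. With the summit required inside the region, HNF4A was at 18.8% of members and 34.1% of promoter regions. RXRA was then at 14.8% and 21.0% in DMR1, and at 30.0% and 47.9% in DMR4. TBX5 of heart bound 1602 members (5.54%), against 8.58% of all liver H3K27ac regions and 11.9% of heart-only active enhancers. Read against the tissue label, each of the 8 liver factor libraries bound members more often than heart-only active enhancers, and TBX5 bound them less often. Intervals cover counting error only, and DMR4 had longer CEBPA and RXRA lists than DMR1 (75849 against 41372 and 53184 against 40759 peaks).

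Against heart-only active enhancers, the shares bound were 16.3% and 0.968% for CEBPA of DMR1, 37.5% and 1.73% for CEBPA of DMR4, and 33.9% and 1.05% for RXRA of DMR4. HNF4A and HNF6 left the most on the heart-only set, 3.07% and 3.13%. The mean difference over the 8 libraries was 18.1 ± 10.4 percentage points (SD, n = 8), higher at members in 8 of 8 libraries. This difference was known from earlier work on these data, and heart-only regions were chosen for lacking any liver consensus region. It is a base for the values by factor and for the tissue label, not independent support. The two-sided exact sign-flip permutation test over libraries gave p = 0.00781, the smallest it can give, and 0.00938 after Benjamini-Hochberg adjustment over the 6 tests made. The libraries come from only 2 animals: with the libraries of an animal flipped together, the exact p was 0.5, the smallest that design allows, for every test reported here. The p-values therefore speak for these libraries, not for a population of animals.

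Acetylated liver-only enhancers were bound more often than primed ones. Liver-only primed enhancers, which lack H3K27ac, were bound at 5.82% by CEBPA of DMR1, 19.2% by CEBPA of DMR4, 5.99% by HNF4A and 10.6% by RXRA of DMR4. Members exceeded them by 12.3 ± 6.17 percentage points (SD, n = 8), in 8 of 8 libraries (exact sign-flip permutation p = 0.00781, adjusted p = 0.00938). The smallest difference was 4.71 points for HNF6, which bound 12.5% of members and 7.79% of primed enhancers, and the largest 23.3 points for RXRA of DMR4. The primed set also had weaker H3K4me1, with a median fold of 4.52. Of 4 classes of members by mean H3K4me1 fold, the lowest went up to 5.12. In that class the mean share bound over the 8 libraries was 11.6%. Acetylation was not separated from H3K4me1 fold, and its part was not tested. A region bound in all 8 libraries was rare in the primed set, 8 of 41042 against 194 of 28925 members (0.671%), where 0.766% of all liver H3K27ac regions were so bound. Active enhancers also marked in heart stood at 136 of 17974 (0.757%) and liver promoter regions at 1.36%, both above the members.

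**Figure D3:**
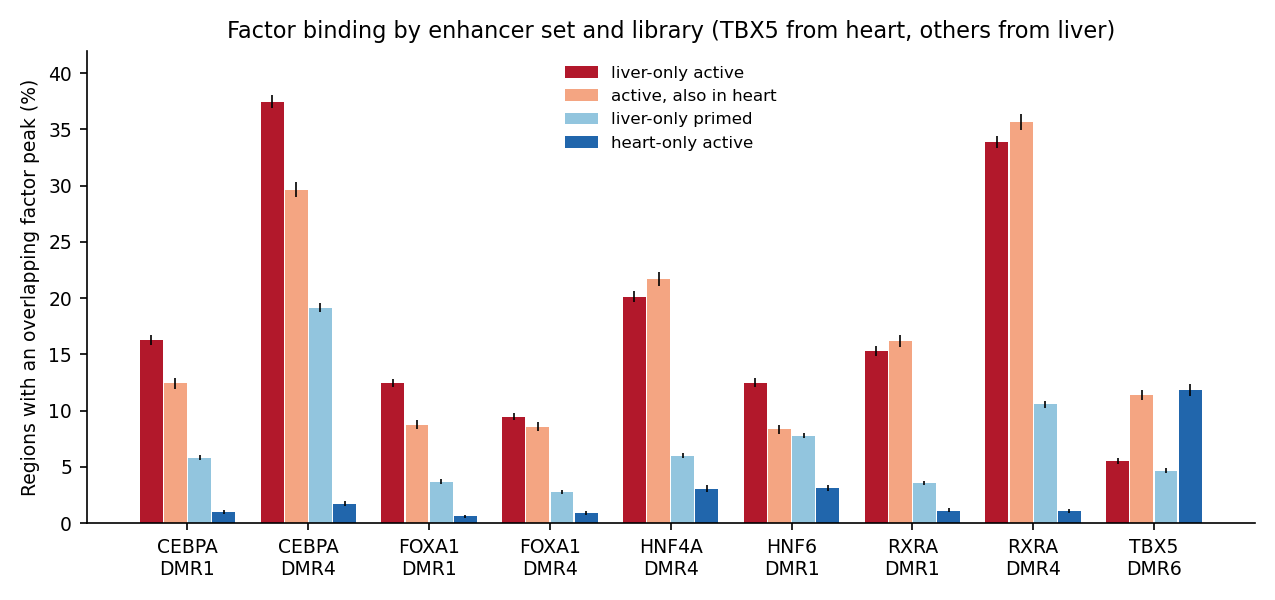
Share of regions with an overlapping factor peak (percent) for 4 enhancer sets in each of 8 liver libraries and the heart TBX5 library, with Wilson 95% intervals that cover counting error only. Heart-only active enhancers stay at or under 3.13% in the liver libraries, and the members are the highest set for CEBPA, FOXA1 and HNF6 but not for HNF4A, RXRA or TBX5.

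Members and active enhancers also marked in heart were not separated by the planned comparison. CEBPA was higher at members by 3.88 points in DMR1 and 7.84 in DMR4, FOXA1 by 3.70 and 0.879, and HNF6 by 4.17. HNF4A differed by -1.55 points, and RXRA by -0.908 in DMR1 and -1.75 in DMR4. The mean was 2.03 ± 3.42 points (SD, n = 8), above 0 in 5 of 8 libraries, and it did not pass the exact sign-flip permutation test (p = 0.141, adjusted p = 0.141). The answer depended on the overlap rule and on how binding was defined. An overlap of 1 base or 75% was applied to the consensus regions and sets as well as to binding, so the regions compared changed too. The centre window kept the regions as they were. The mean was 8.74 points with a 1-base overlap and 8.57 with a factor summit required within 1000 bases at the centre (adjusted p = 0.00938 and 0.00781, exact sign-flip permutation). It was -1.53 with an overlap of 75% (adjusted p = 0.25, same exact test). The window is longer than a member of median width. With the summit required inside the region, HNF4A was at 18.8% of members and 21.2% of the regions also marked in heart. RXRA was at 14.8% and 16.2% in DMR1, and at 30.0% and 33.7% in DMR4. CEBPA, FOXA1 and HNF6 were higher at members in each of their libraries, such as CEBPA of DMR4 at 31.0% and 27.9%.

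Width bears on this comparison, since the members were the narrower set. Within 4 width classes set at the quartiles of the members, a comparison added after the data were seen, members were bound more often in all 4 classes and in 8 of 8 libraries. Averaged over the libraries the shares were 7.34% against 4.03% in the narrowest class, 9.19% against 6.01% in the second, 18.2% against 11.3% in the third and 44.1% against 37.1% in the widest. The mean difference over classes was 5.12 ± 3.39 points (SD, n = 8; exact sign-flip permutation p = 0.00781). HNF4A and RXRA, lower at members over all widths, were higher by 2.12, 2.37 and 3.78 points within classes (HNF4A, RXRA of DMR1, RXRA of DMR4).

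Over the 8 liver libraries, 17309 members (59.8%, Wilson 95% interval 59.3 to 60.4) were bound at least once, against 52.6% of all liver H3K27ac regions. The share was 51.7% for active enhancers also marked in heart, 35.8% for liver-only primed and 10.7% for heart-only active enhancers. Liver promoter regions, which were wider, stood above the members at 64.4%. Of the members, 6092 were bound in 1 library, 3958 in 2, 2654 in 3 and 194 in all 8. Counted by factor, 7045 members were bound by 1 of the 5 factors, 4683 by 2, 3178 by 3, 1788 by 4 and 615 by all 5. All 5 factors bound 2.13% of members, 2.06% of active enhancers also marked in heart and 3.40% of liver promoter regions. The share was 0.0877% for liver-only primed enhancers. Counts for fewer factors are given for the members only. Without the CEBPA library of DMR4 the share bound at least once was 52.1%.

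The number of libraries bound went with width and fold. Members bound in none had a median width of 522 bases and a median H3K27ac fold of 5.25. Those bound in 4 libraries had 1719 bases and 10.6, and those bound in all 8 had 3423.5 bases and 20.7. A wider region offers more room for a peak, and width was not separated from fold in these numbers. Of the 11616 unbound members, 19.1% had an H3K27ac peak in all 5 livers, against 58.0% of the bound ones and 96.4% of those bound in all 8.

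Around the centres of all members together, factor summits were densest on either side. In all 8 libraries the densest 100-base bins were 300 to 400 bases from the member's centre, with 60.9 CEBPA summits of DMR4 per 1000 members per 100 bases there against 35.3 within 100 bases of the centre. The ratio of the densest bins to the centre ran from 1.35 for HNF4A to 1.95 for CEBPA of DMR1. At 1900 to 2000 bases from the centre, the density was 9.66 for CEBPA of DMR4 and 2.06 to 7.90 for the other 7 libraries. The summit of a factor peak at a member was a median of 254 bases (HNF4A) to 285 bases (FOXA1 of DMR1) from the nearest H3K27ac summit of the same animal. Of the factor peaks that bound members, 79.9% (CEBPA of DMR4) to 90.4% (RXRA of DMR1) had their summit inside the member. Of the summits inside, 61.5% (HNF6) to 68.4% (RXRA of DMR1) lay in the central part that makes up 50% of the width. A distance of 300 to 400 bases lies at or past the edge of a member of median width, so the position depended on how wide the member was. At the 3861 members of at least 2000 bases, summits were densest far inside, with 0.140 to 0.538 per kb per edge over the 8 libraries at 750 to 1000 bases inward of an edge. There were 0.0399 to 0.138 in the 250 bases just inside the edge and 0.0761 to 0.245 in the 250 bases just outside it, the outer value being the higher in 8 of 8 libraries.

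**Figure D4:**
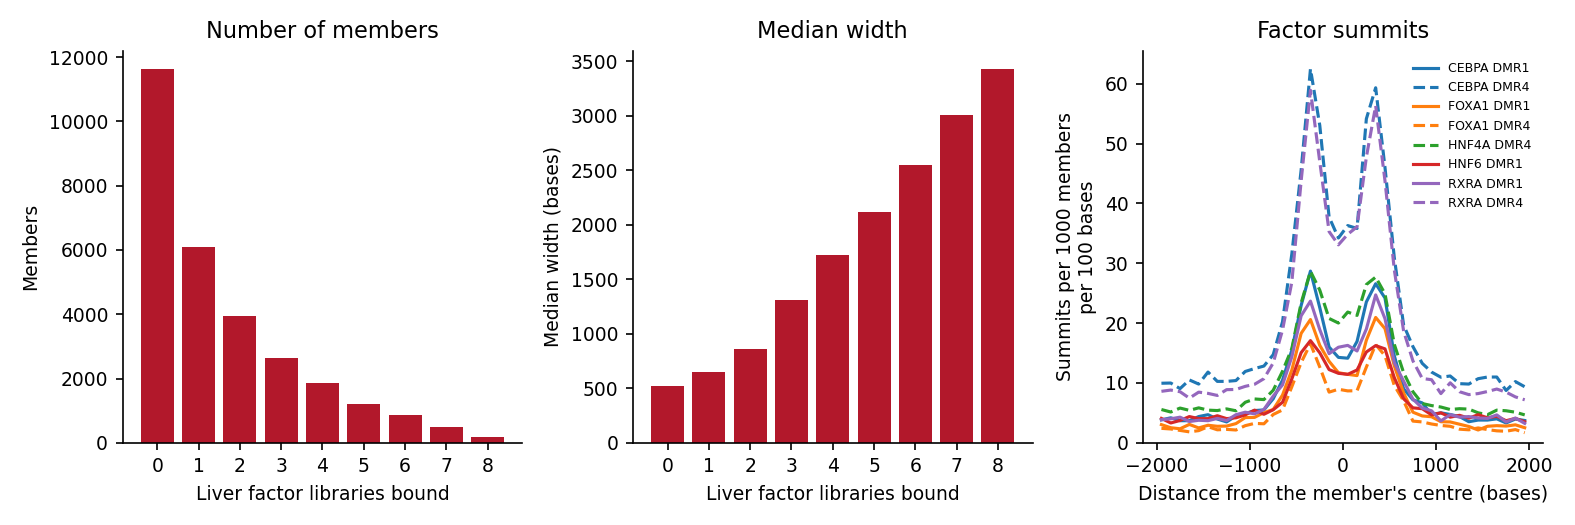
Members by the number of the 8 liver factor libraries that bound them (left), the median width of each class in bases (middle), and the density of factor summits by distance from the member's centre (right, summits per 1000 members per 100 bases, one line per library). The number falls from 11616 bound in none to 194 bound in all 8 while the median width goes from 522 to 3423.5 bases, and all 8 profiles have their highest points 300 to 400 bases to either side of the centre.

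The short gaps between neighbouring members held many of these summits. A CEBPA summit lay in 13.8% of the 6981 gaps of at most 500 bases in DMR1 and 27.2% in DMR4, an RXRA summit in 12.4% and 25.5%, and a FOXA1 summit in 11.3% and 8.88%. HNF4A had a summit in 13.1% of the gaps and HNF6 in 6.30%. In stretches of the same lengths laid against the outer edges of the same members, where no other member lay within 1000 bases, the shares were 0.474% to 2.41%. All 8 libraries thus had more summits between 2 members than outside them, a contrast chosen after the values were seen and not tested. At least 1 library had a summit in 3323 of the gaps (47.6%). A peak with its summit in a gap counted for a neighbouring member only where it overlapped that member by 50% of the shorter, and 5489 of the members beside a short gap were called unbound. With the members joined across these gaps, the share bound at least once was 69.8%, in place of 59.8%.

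Binding was graded by H3K27ac fold. Members were ranked by mean fold and split into 4 classes of equal size. In the lowest class (up to 4.97), 4.74% were bound by CEBPA of DMR1, 17.9% by CEBPA of DMR4, 2.25% by FOXA1 of DMR4 and 12.4% by RXRA of DMR4. In the highest class (8.91 and above) the shares were 37.3%, 67.5%, 24.6% and 69.4%. The mean difference was 35.8 ± 12.7 percentage points (SD, n = 8), higher in the highest class in 8 of 8 libraries (exact sign-flip permutation p = 0.00781, adjusted p = 0.00938). HNF6 had the smallest difference, 20.3 points, and RXRA of DMR4 the largest, 56.9.

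Width moved with fold: the median width was 417.5 bases in the lowest class of fold and 1922 in the highest. In a fixed window of 1000 bases at the centre, which gives every member the same room, CEBPA of DMR4 had a summit at 35.3% of the lowest class and 52.2% of the highest, and HNF4A at 14.2% and 35.5%. Among the widest of 4 width classes, the mean share bound over the 8 libraries was 13.9% in the lowest class of fold (36 members), 20.2% in the second, 30.2% in the third and 50.2% in the highest (5194 members). Among the narrowest class the corresponding shares were 5.90%, 8.61%, 11.9% and 11.96% (46 members). H3K4me1 gave a flatter gradient: from the lowest to the highest of 4 classes of mean H3K4me1 fold, the mean share bound went from 11.6% to 29.6%, with medians of 553 and 1155 bases in width.

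**Figure D5:**
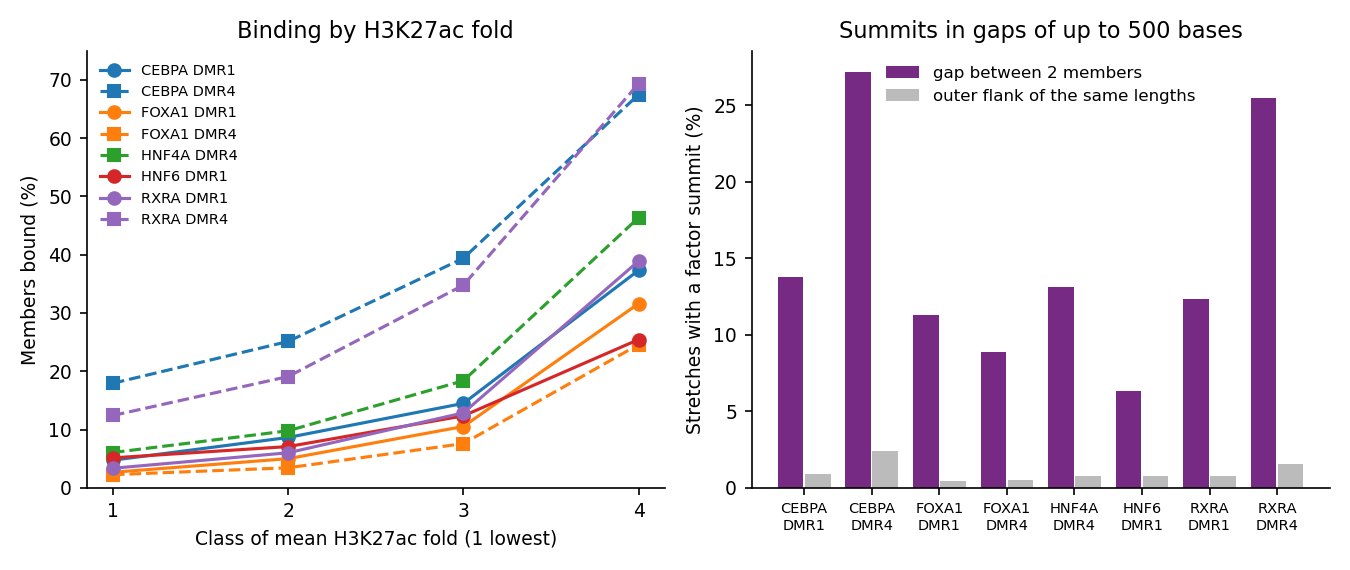
Left, share of members bound (percent) by class of mean H3K27ac fold (4 classes of equal size) in the 8 liver factor libraries. Right, share of 6981 gaps of at most 500 bases between neighbouring members that hold a factor summit, beside outer flanks of the same lengths; each line climbs from at most 17.9% to at least 24.6%, and the flanks stay at or under 2.41%.

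Clustering brought little difference in binding. Members in runs of 3 or more were bound less often than lone members by 1.23 ± 1.18 percentage points (SD, n = 8), in 8 of 8 libraries (exact sign-flip permutation p = 0.00781, adjusted p = 0.00938). CEBPA of DMR4 bound 39.1% of lone members and 36.5% of members in runs of 10 or more, and HNF6 bound 12.7% and 13.5%. The direction turned when a 1-base overlap was used, to 1.84 points, and when members at most 500 bases apart were joined, to 0.927 points. It no longer passed with gaps of up to 25000 bases, at -0.243 points (adjusted p = 0.422, exact sign-flip permutation).

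For CEBPA, FOXA1 and RXRA, DMR1 and DMR4 could be compared. Of the members bound by CEBPA in DMR1, 86.4% were bound in DMR4, and 37.6% of those of DMR4 were bound in DMR1. For RXRA the shares were 82.1% and 37.0%, and for FOXA1 47.1% and 62.0%. Summits of the same factor at the same member lay a median of 44 bases apart between animals for CEBPA, 51 for FOXA1 and 64 for RXRA. The summits lay close together in the 2 livers, while the numbers of bound members differed by 2.30 times for CEBPA and 2.22 times for RXRA.

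Binding was more frequent where the liver of the same animal was acetylated. There were 4615 members with an H3K27ac peak in DMR1 and none in DMR4, and 3430 with the reverse, with median widths of 483 and 437 bases. CEBPA of DMR1 bound 8.17% of the first and 4.20% of the second, and CEBPA of DMR4 bound 18.6% and 22.6%. RXRA of DMR1 bound 6.76% and 2.89%, and RXRA of DMR4 11.5% and 20.4%. FOXA1 of DMR1 bound 5.53% and 2.54%, and FOXA1 of DMR4 2.15% and 3.47%. HNF6 of DMR1 bound 9.06% and 3.91%, and HNF4A of DMR4 5.33% and 10.1%. In 8 of 8 libraries the class acetylated in the animal that gave the library had the higher share, an observation made without a test.

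Factors shared members within an animal. In DMR4, 77.1% of FOXA1-bound members were also bound by RXRA and 75.2% by CEBPA, where 33.9% and 37.5% of all members were. Of the HNF4A-bound members, 71.9% had RXRA. In DMR1, 46.9% of FOXA1-bound members had CEBPA and 32.3% had HNF6, against 16.3% and 12.5% of all members. Summits of HNF4A and RXRA in DMR4 lay a median of 79 bases apart, as did those of FOXA1 and RXRA. Those of CEBPA and HNF6 in DMR1 lay 205 bases apart, the widest median of the 12 factor pairs measured within an animal. Wide members are bound by more factors, so these shares describe the members and are not a measure of joint binding at matched width.

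Seen from the factor lists, members took a share of each. They held 20.8% of RXRA peaks of DMR4, 15.9% of CEBPA peaks of DMR4 and 14.8% of FOXA1 peaks of DMR4, down to 5.70% of HNF6 peaks. Most peaks of 6 libraries lay outside every liver histone region, from 51.5% for FOXA1 of DMR4 to 79.1% for HNF6, against 42.7% for CEBPA of DMR4 and 18.6% for RXRA of DMR4. By median fold, factor peaks at members were above those outside every liver histone region. The median fold was 11.1 against 4.69 for CEBPA of DMR4, 8.12 against 5.08 for RXRA of DMR4 and 5.50 against 4.27 for RXRA of DMR1. The mean log2 ratio of the medians was 0.58 ± 0.28 (SD, n = 8), above 0 in 8 of 8 libraries (exact sign-flip permutation p = 0.00781, adjusted p = 0.00938). Peaks at active enhancers also marked in heart had medians below those at members in every library but RXRA of DMR1, where it was 5.63. The gap was widest for CEBPA of DMR4, 9.38 against 11.1 at members, and HNF6, 5.21 against 6.25. The other medians lay closer, such as 7.99 against 8.12 for RXRA of DMR4 and 6.08 against 6.20 for FOXA1 of DMR4. That contrast was not tested. Very high folds, above 100, were found at members in 3 libraries only: 79 peaks of CEBPA and 10 of RXRA, both of DMR4, and 1 of HNF4A. Outside every liver histone region, folds above 100 were found in all 8 libraries, at 19 to 41 peaks each, 41 for FOXA1 of DMR4 and 28 for HNF4A among them.

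Members touched by a heart peak in a single library were not poor in liver binding. The share bound in at least 1 liver factor library was 58.7% for members with no heart peak in any library, 61.6% with a peak in 1 and 69.3% with peaks in more. The median widths of these classes were 670, 847 and 1236 bases, so width moved with the share. TBX5 bound 5.28%, 5.76% and 8.11% of them. Of the 1602 members with a TBX5 peak, 76.1% were also bound by a liver factor, against 59.8% of all members. Their median width was 1370 bases, against 713 for all members.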

How the data were processed

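ChIP-seq peak lists of Damaraland mole-rat liver and heart were used: 27 histone lists, 8 liver factor lists and 1 heart TBX5 list. MACS2 is named in the submitters' processing notes. Its version is not given in the sources used here, nor is the aligner. In the deposited lists the fold is a linear ratio over background, and significance is deposited on the −log10 scale, as a p-value and a q-value, with no −log10 q under 1.30. The deposited summit offset gave summit positions. Histone file names carry the build DMR_v1.0, and factor lists use the same scaffold names. No pair of lists was identical.

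Touching peaks of a library were merged, consensus regions and sets were built by the 50% rule, and binding was called as described above. The 6 tests were two-sided exact sign-flip permutation tests over 8 libraries, with Benjamini-Hochberg adjusted values read against 0.05. Animals are named by their labels, which pair libraries of the same animal. Code was tested on simulated data and run with Python 3.11.15, NumPy 2.4.6 and SciPy 1.17.1. The members, lists and comparisons were chosen with earlier results of these data known.

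Named regions were the 5 members with a peak in all 5 livers and the highest mean H3K27ac fold, the 3 bound in all 8 factor libraries with the highest fold, the 3 widest, and the 3 runs with the most members. The short region on KN115855.1 was named outside these rules. Alternatives covered the overlap, the q threshold, the consensus, the removal of each library, the definition of binding and the gap of a run. Motifs, sequences and nearby genes were not analysed here, since no genome of the build was at hand. The H3K4me1 heart list of DMR1 carries a tag (40M) in its name that the labels do not explain. One sample whose title and organism name different species was left without a group.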

Additional observations from a re-analysis of the deposited data

Results flagged for a closer look

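The median width of H3K27ac peaks at members was 573 bases in DMR2, against 431 to 449 in the other 4 livers, and stood apart from them by a test of gaps within a group. It was the only flag among the 17 groups of 5 libraries examined, where chance flags about 1 in 20. DMR2 also had the fewest members with more than 1 of its peaks, 11.2% against 16.9% to 22.6%. Without the H3K27ac library of DMR2 the median width of members was 678 bases and the median fold 6.65.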

How the results depend on the processing

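Binding at members stayed above primed and heart-only enhancers and grew with H3K27ac fold in the same direction under every alternative run, between 10.7 and 13.4, 15.6 and 19.5, and 31.0 and 38.0 percentage points when single libraries were left out. The replicate block, with libraries of an animal flipped together, left the mean differences at 12.3, 18.1, -1.23 and 35.8 points and 0.583 on the log2 scale but took all 5 above the threshold of 0.05, to an exact permutation p of 0.5, the smallest it allows. The difference from active enhancers also marked in heart ranged from 1.20 to 2.57 points when single libraries were left out. It was 8.74 with a 1-base overlap, 8.57 in the centre window, 5.12 over width classes (added after seeing the data) and -1.53 at 75% overlap. By library it turned to 4.17, 4.39 and 7.64 (HNF4A, RXRA of DMR1, RXRA of DMR4) with 1 base, to 4.96, 5.04 and 8.26 in the window, to 2.12, 2.37 and 3.78 over width classes, and to -0.986 for FOXA1 of DMR4 at 75%. By summit in the region, HNF4A and RXRA stayed lower at members, and CEBPA, FOXA1 and HNF6 stayed higher. The difference between clustered and lone members ranged from -1.42 to -0.980 when single libraries were left out. It was 1.84 with 1 base, 0.927 with members joined across 500 bases (added after seeing the data), -1.16 with removal by any single library, -0.0272 with 10000 peaks per library, -0.774 by summit in the region and -0.243 with gaps of 25000.

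The share bound at least once was 76.8% with 1 base, 44.7% at 75%, 65.4% with a histone −log10 q of at least 4, 69.0% with 3 replicates, 57.7% with removal by any single library, 56.6% with a factor −log10 q of at least 4, 34.2% with 10000 peaks, 71.0% in the window, 52.8% by summit and 69.8% with members joined. It ranged from 52.1% to 62.2% with single libraries left out. The number of members ranged from 25798 to 30244 and of runs from 2970 to 3575 when single libraries were left out, and joining gave 1812 runs. The factor fold ratio ranged from 0.489 to 0.614. Members bound in every library numbered 383 without HNF6, against 194. The causes were not tested. Read depth is unknown, so a member called unbound was not detected as bound at the depth of that library.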
